A study of Mus musculus with 6 samples.

Results

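Intergenic ATAC-seq intervals lying between 1 and 20 kb from a transcription start site (TSS) were examined in skeletal muscle nuclei with and without the histone variant H2A.Z. An interval is a stretch of accessible DNA in the deposited table of counts. It was taken here when it lay on an autosome, overlapped no gene of the mm9 annotation (GENCODE vM1), and had its nearest edge more than 1 kb and at most 20 kb from the nearest annotated TSS. By this rule 4658 of the 39768 intervals were chosen (11.7%), and they are 51.2% of the 9101 autosomal intergenic intervals more than 1 kb from any TSS. The union set described in the methods is larger than the table analysed here, so all shares and CPM refer to these 39768 intervals. No measured accessibility entered the rule. The members merged into 4176 groups of non-overlapping DNA, since 873 of them overlapped another interval.

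The 6 libraries came from mice on the C57BL/6 background (C57BL/6N in the methods) at 7 weeks of age, and all 6 mice carried floxed alleles of both H2A.Z genes, H2A.Z-1 (h2afz) and H2A.Z-2 (h2afv), on both chromosomes. The 3 CTL mice (titled WT in the sample labels) had no Cre, and the 3 H2A.Z dKO mice carried in addition HSA-Cre, a Cre transgene under the human skeletal actin promoter. This promoter acts in post-mitotic muscle fibres, so nuclei of other cells in the tissue keep their H2A.Z genes. Each library started from 50000 nuclei, taken from tibialis anterior muscle according to the labels and from hind limb muscles according to the methods of the study, and no label says that any mouse was pooled.

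In ATAC-seq the transposase Tn5 cuts and tags DNA where nucleosomes leave it exposed, so the fragment ends counted in an interval measure how open that stretch is. Open DNA outside genes and promoters marks enhancers, where transcription factors bind and act on a promoter at a distance, and insulators, where the zinc finger protein CTCF stops cohesin and holds the borders of chromatin loops. It also marks short genes that annotations can miss, such as those for tRNAs, and promoters whose start site is annotated elsewhere. H2A.Z replaces H2A in nucleosomes that flank start sites, enhancers and CTCF sites, and the comparison of CTL with H2A.Z dKO muscles asked whether this DNA stays open without it.

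Some members are shown here as DNA because the letters they hold are counted over all members in the results. All are the plus strand of mm9, read 5′ to 3′. The first 3 are windows of 200 bases around the midpoints of the 3 most accessible members by counts, and their capitals mark CG dinucleotides, which cluster in CpG islands. They lie near Zfp78, a zinc finger gene (chr7:6315373-6315572), near the chromatin remodeller gene Chd2 (chr7:80703375-80703574) and near Nr4a3, an immediate early nuclear receptor gene (chr4:48056050-48056249).
Peak_14453, near Zfp78: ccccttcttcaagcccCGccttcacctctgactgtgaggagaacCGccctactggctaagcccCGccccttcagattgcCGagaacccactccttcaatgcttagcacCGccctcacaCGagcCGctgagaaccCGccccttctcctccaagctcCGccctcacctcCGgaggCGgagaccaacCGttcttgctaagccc
Peak_15627, near Chd2: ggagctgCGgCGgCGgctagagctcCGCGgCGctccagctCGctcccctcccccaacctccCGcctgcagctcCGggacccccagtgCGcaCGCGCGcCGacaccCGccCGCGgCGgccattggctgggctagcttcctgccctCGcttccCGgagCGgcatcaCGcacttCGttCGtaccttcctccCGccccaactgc
Peak_7831, near Nr4a3: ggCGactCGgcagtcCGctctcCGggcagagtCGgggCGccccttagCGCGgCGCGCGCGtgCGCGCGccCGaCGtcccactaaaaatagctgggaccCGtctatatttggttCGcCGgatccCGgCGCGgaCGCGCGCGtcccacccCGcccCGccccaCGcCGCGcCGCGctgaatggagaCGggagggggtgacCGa
The windows held 12, 25 and 36 CG dinucleotides, and the other windows of 200 bases shown further down held 4 to 29.

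The next 4 show the match to the CTCF motif, 14 letters marked by capitals, in 80 bases centred on the match. They lie near Klrb1c (chr6:128753321-128753400), Phlda3 (chr1:137649632-137649711), Mex3a (chr3:88330316-88330395) and B4galnt4 (chr7:148234291-148234370).
Peak_14082, near Klrb1c: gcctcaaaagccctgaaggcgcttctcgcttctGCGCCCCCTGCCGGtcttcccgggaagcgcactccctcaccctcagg
Peak_1523, near Phlda3: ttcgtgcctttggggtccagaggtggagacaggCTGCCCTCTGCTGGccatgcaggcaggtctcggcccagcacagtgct
Peak_6206, near Mex3a: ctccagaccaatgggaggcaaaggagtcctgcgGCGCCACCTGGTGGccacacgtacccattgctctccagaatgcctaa
Peak_16970, near B4galnt4: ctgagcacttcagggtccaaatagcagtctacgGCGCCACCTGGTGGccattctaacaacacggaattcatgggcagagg
The last pair had the same 14 letters on different chromosomes.

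Another pair shows the B box, the internal promoter element of tRNA genes to which the RNA polymerase III factor TFIIIC binds, with its 11 letters in capitals (GGTTCNANNCC, here on the minus strand). They lie near a U1 small nuclear RNA gene (chr3:96304227-96304426) and near Zfp692 (chr11:58115908-58116107).
Peak_6459, near U1: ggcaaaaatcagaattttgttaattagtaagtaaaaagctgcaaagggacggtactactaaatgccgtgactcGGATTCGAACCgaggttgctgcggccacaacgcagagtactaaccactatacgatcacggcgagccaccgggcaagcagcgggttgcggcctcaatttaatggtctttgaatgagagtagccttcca
Peak_24486, near Zfp692: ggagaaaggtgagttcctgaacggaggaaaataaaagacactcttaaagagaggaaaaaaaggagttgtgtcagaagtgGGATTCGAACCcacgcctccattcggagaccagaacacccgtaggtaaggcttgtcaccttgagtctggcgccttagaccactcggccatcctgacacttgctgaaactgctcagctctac

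The last 4 belong to genes of muscle fibres and to immediate early genes, which switch on within minutes of a stimulus. In the pair for Ckm, muscle creatine kinase (chr7:19995264-19995463), and Hspb7, a small heat shock protein of striated muscle (chr4:140982111-140982310), capitals mark the letters CANNTG, the E-box bound by factors of the MyoD family, and matches to the motif of MEF2, the other textbook activator of muscle genes.
Peak_14687, near Ckm: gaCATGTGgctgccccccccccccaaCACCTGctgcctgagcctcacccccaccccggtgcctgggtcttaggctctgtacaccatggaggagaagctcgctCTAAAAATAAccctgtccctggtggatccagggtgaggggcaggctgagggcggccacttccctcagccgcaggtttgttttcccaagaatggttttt
Peak_9412, near Hspb7: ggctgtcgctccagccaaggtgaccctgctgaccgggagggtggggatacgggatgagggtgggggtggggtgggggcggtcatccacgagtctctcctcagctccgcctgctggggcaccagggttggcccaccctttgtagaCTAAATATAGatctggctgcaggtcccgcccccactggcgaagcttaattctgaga
In the pair for Fos, a subunit of AP-1 (chr12:86826941-86827140), and Btg2, an antiproliferative gene (chr1:135989617-135989816), capitals mark the CArG box bound by serum response factor, the letters TGACGT bound by CREB and the letters GGGCGG bound by Sp1, on either strand.
Peak_27946, near Fos: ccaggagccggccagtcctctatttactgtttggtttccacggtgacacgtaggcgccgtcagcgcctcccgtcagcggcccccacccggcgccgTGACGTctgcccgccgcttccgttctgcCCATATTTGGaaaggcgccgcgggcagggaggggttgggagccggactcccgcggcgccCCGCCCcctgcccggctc
Peak_1441, near Btg2: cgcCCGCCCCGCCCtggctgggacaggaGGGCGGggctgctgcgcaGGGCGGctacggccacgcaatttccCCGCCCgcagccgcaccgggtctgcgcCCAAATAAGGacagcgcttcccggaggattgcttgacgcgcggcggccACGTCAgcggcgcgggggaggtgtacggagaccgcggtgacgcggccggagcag

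The libraries held between 3520008 and 6117245 counts in all intervals. H2A.Z dKO replicate 1 stood apart from the other 5: the chi-square per interval between a pair of libraries was 3.66 to 4.80 in pairs that included it and 1.45 to 2.13 in the rest. The share of counts, the mean level and the differences between classes are therefore given with and without it. Fold changes of single members and lists are given with all libraries unless stated. Intervals at the targeted genes did not separate the groups. The widest interval at h2afz (Peak_7049 in the files) had 126, 125 and 122 CPM (counts per 1000000 counts in all intervals) in CTL replicates 1, 2 and 3 and 158, 134 and 111 in H2A.Z dKO replicates 1, 2 and 3. The fitted log2 fold change was 0.12. The widest at h2afv (Peak_23798) had 192, 201 and 160 against 199, 178 and 176. These intervals check the labels only weakly, because open DNA at a gene is not its product. The libraries are called by their labels below, and values of single libraries are given in the order of replicates 1, 2 and 3.

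Members were short and of moderate height. The median width was 92 bp, in a range of 9 to 848 bp, and 1941 members (41.7%) were narrower than 73 bp, the window with which the regions were called. The mean CPM over the 6 libraries ran from 1.17 to 215 with a median of 8.92, and 3022 members (64.9%) had at least 20 counts in every library. The nearest TSS belonged to a protein-coding gene for 3274 members (70.3%), to a pseudogene for 339, to a small nuclear RNA for 185 and to a microRNA for 156. Members lay on the 5′ side of that TSS more often, 3043 against 1615 on the 3′ side, where the body of the gene itself is not available to an intergenic interval. The median distance to the TSS was 8113 bp. At the lower limit, the closest member lay 1002 bp from Junb (Peak_18286, 166.7 RPKM) and the closest intergenic interval left out lay 999 bp from a TSS (Peak_7697, 167.5 RPKM). At the upper limit, the values were 87.3 RPKM for the member at 19987 bp (Peak_31220) and 85.0 RPKM for the interval at 20008 bp (Peak_12959).

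Accessibility per base placed the members between promoters and more remote DNA. It is given as RPKM, the CPM of an interval divided by its width in kilobases. According to the methods, fragment ends were extended before counting, so ends just beside an interval can count in it. RPKM is therefore raised most in the narrowest intervals. The median RPKM of the members was 107, 106 and 107 in CTL and 94.2, 113 and 112 in H2A.Z dKO. The 20328 promoter intervals, those within 1 kb of a TSS, had medians of 133, 134 and 134 in CTL and 139, 132 and 132 in H2A.Z dKO. Every library thus had lower members than promoters, by 0.33 on the log2 scale of the medians, or 0.796-fold (6 of 6 libraries, exact sign-flip permutation test over libraries, 2-sided, p = 0.03125, the smallest value 6 libraries allow). The 8621 intronic intervals had medians of 84.8 to 108 and the 2061 intergenic intervals more than 50 kb from a TSS had medians of 79.1 to 97.8. Members were 1.08-fold higher than the intronic intervals and 1.19-fold higher than the remote ones, in 6 of 6 libraries each (the same exact test, p = 0.03125 before and after adjustment over the 3 comparisons). H2A.Z dKO replicate 1 was lowest for the members, for the intronic and for the remote intervals and highest for the promoters.

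**Figure D1:**
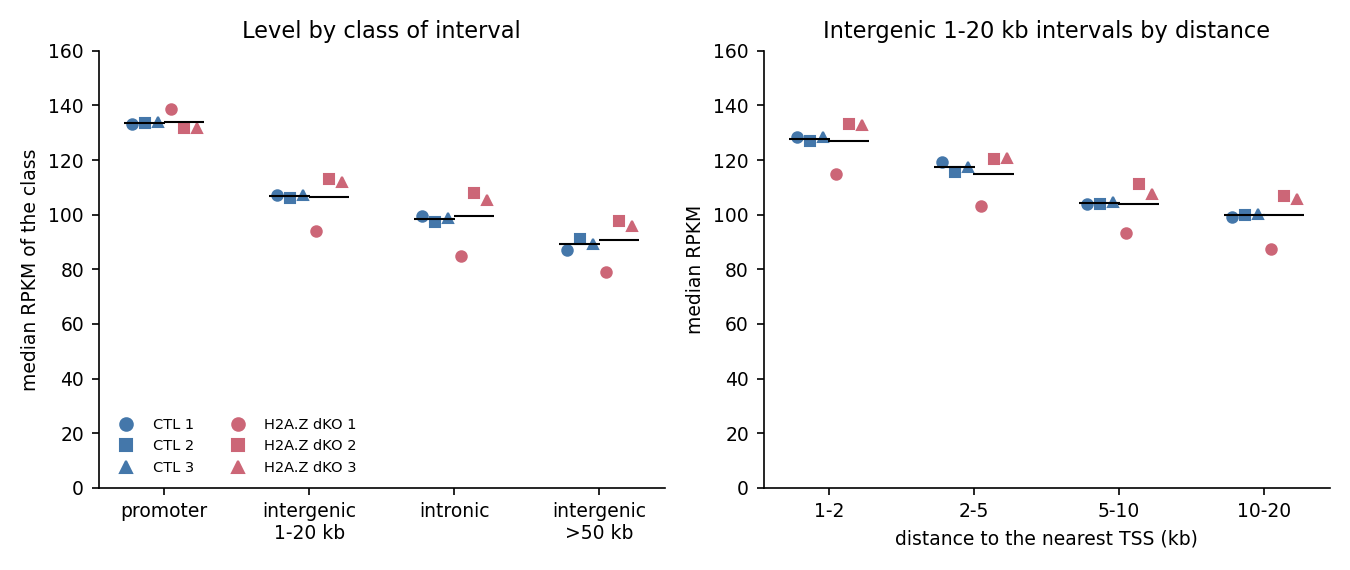
Median accessibility of each interval class in each of the 6 libraries, in RPKM (CPM per kilobase of width), for the classes (left) and for members by distance to the TSS (right), with 1 point per library, shapes for the replicate number and lines for the group means. The members lie between 94.2 and 113, below the promoter intervals at 132 to 139, and H2A.Z dKO replicate 1 is the library that lies apart from the other 5.

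Median accessibility was ordered by distance from the TSS. The median RPKM was 129 for the 428 members at 1 to 2 kb, 117 for the 966 members at 2 to 5 kb, 105 for the 1403 members at 5 to 10 kb and 101 for the 1861 members at 10 to 20 kb. The nearest class was 1.28-fold higher than the farthest in 6 of 6 libraries (exact sign-flip permutation test, p = 0.03125, adjusted over 2 comparisons 0.0625). Members on the 5′ side and on the 3′ side differed by only 0.011 on the log2 scale, in 4 of 6 libraries (p = 0.125, the same exact test), and the call depended on the processing, with 0.00198 for distances to protein-coding TSSs (p = 0.8125, exact) and 0.0282, in 6 of 6 libraries, for members at least 73 bp wide (p = 0.03125, exact). Of the 2204 members whose nearest gene had a promoter interval of its own, 690 (31.3%) had a higher mean RPKM than that promoter interval, and the median member stood at 0.793 of it. The member 8.68 kb from Foxj2, a forkhead transcription factor gene (Peak_13932, chr6:122760711-122761256), had 2.10 times the RPKM of the promoter interval. The member 1.11 kb from Bhlhe41 (Peak_14276, chr6:145815191-145815395), a repressor of the circadian clock, had 1.85 times that of its promoter.

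The most accessible members were broad and often rich in CG. The highest by counts lay 8.24 kb from Zfp78 (Peak_14453, 717 bp), with 200, 201 and 233 CPM in CTL and 283, 193 and 181 in H2A.Z dKO. H2A.Z dKO replicate 1 was the highest of the 6 libraries and the other H2A.Z dKO libraries the lowest, so the groups overlapped. The member 16.5 kb from Chd2 (Peak_15627, 631 bp) had 193, 199 and 222 CPM in CTL and 231, 203 and 187 in H2A.Z dKO, with overlapping groups and a log2 fold change of 0.02 ± 0.10 (SE). The member 1.45 kb from Nr4a3 (Peak_7831, 848 bp) had 211, 216 and 193 against 216, 189 and 202 CPM. The others among the 10 highest lay near Gm12591, Zfp869, Foxj2, Gm8618, Gm16432, Mirlet7a-1 and AC134910.1, with log2 fold changes between -0.27 and -0.04. The value near Gm12591 (Peak_26952), -0.12, turned to 0.09 without CTL replicate 3. That member had 167, 181 and 257 CPM in CTL and 195, 181 and 179 in H2A.Z dKO, and holds repeats of TTAGGG, the telomere letters.

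The member 8.14 kb from Mirlet7a-1 (Peak_29091, chr13:48641782-48642251), a gene of the let-7 microRNA family, had 157, 156 and 166 CPM in CTL and 136, 150 and 148 in H2A.Z dKO, a log2 fold change of -0.14 (edgeR, adjusted p = 0.972). For Foxj2 (Peak_13932), the values were 163, 179 and 185 against 160, 163 and 158, where the CTL libraries lay above the H2A.Z dKO libraries by a small margin (log2 fold change -0.13, edgeR adjusted p = 0.972). The member 7.93 kb from Gm16432 (Peak_2133) had the smallest unadjusted p of the 10, 0.0173 in the edgeR fit, with 163, 171 and 185 against 126, 164 and 142 CPM and overlapping groups. By RPKM, which is raised in narrow intervals, the highest member of all was a 31 bp interval near the olfactory receptor gene Olfr692 (Peak_16191, singled out after its values were seen), with 2082 RPKM. Its 58.9, 61.6 and 101 CPM in CTL and 50.4, 64.4 and 51.4 in H2A.Z dKO overlapped, and CTL replicate 3 alone stood high.

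Several of these lie on promoters that the mm9 annotation places elsewhere. RefSeq start sites (GRCm38.p6) were located in mm9 by their flanking bases, and 118 members (2.53%) had a match inside and 377 (8.09%) had one within 1 kb. Part of these matches did not hold over the full promoter sequence. Some recurred at unrelated members, such as Gm46264 near Itgb1, Sh3tc1 and Taar6, and cannot all be the start site of that gene. Both counts include such matches, while the cases named below matched in full. The start site of Chaserr, a long noncoding RNA beside Chd2, lay in the member near Chd2. The start site of Gatad2b, a subunit of the NuRD remodelling complex, lay in a member whose nearest annotated gene was Dennd4b (Peak_6334), with 141, 134 and 143 CPM in CTL and 140, 130 and 148 in H2A.Z dKO. That of Cpeb4, a regulator of mRNA polyadenylation, lay in a member with 112, 123 and 118 against 115, 105 and 121 CPM (Peak_24068). Both members had overlapping groups. Zfp317 (Peak_19427) and 1700096K18Rik (Peak_10081) were further cases. Members with a RefSeq start site inside were 1.20-fold higher in median RPKM than members with none within 1 kb, in 6 of 6 libraries (exact sign-flip permutation test, p = 0.03125), and 61 of the 118 were CpG-rich by the rule that follows.

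The sequence of the members stood between that of promoters and that of remote DNA. In windows of 200 bp around the midpoints, the median GC content was 54.0% for members, 65.0% for promoter intervals, 52.5% for intronic, 51.5% for remote intervals and 47.0% for windows centred 1 kb to either side of each member. The ratio of observed to expected CG dinucleotides had medians of 0.31 for members, 0.80 for promoters and 0.20 for the flanking windows. With CpG-rich defined as a ratio of at least 0.6 and a GC content of at least 50%, 719 members (15.4%) were CpG-rich, against 73.4% of promoter, 4.30% of intronic, 5.19% of remote intervals and 3.24% of flanking windows. CpG-rich members were 1.27-fold higher in median RPKM than the other members in 6 of 6 libraries (exact sign-flip permutation test, p = 0.03125).

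CTCF matches were frequent in members and rare around them. A match to its 14-letter motif, on either strand, lay in the windows of 526 members (11.3%), against 0.20% of flanking windows, 2.36% of promoter, 6.90% of intronic and 5.39% of remote intervals, and 5.12% of all autosomal intervals. The match nearest to the midpoint was on the plus strand in 279 and on the minus strand in 247 members, and within 50 bp of the midpoint in 357. It was wholly inside the interval in only 92, the members with a match having a median width of 46.5 bp. They were 1.12-fold higher in median RPKM than members without one (6 of 6 libraries, exact sign-flip permutation test, p = 0.03125), and 0.08 on the log2 scale among members at least 73 bp wide, where p was 0.0625. By CPM they were lower, with a median of 5.23 against 9.69 in members without a match, whose median width was 101 bp. In the member near Klrb1c (Peak_14082), a natural killer cell receptor gene, CPM was 70.3, 72.4 and 75.0 in CTL and 67.8, 66.8 and 65.7 in H2A.Z dKO. The groups did not overlap there, and the log2 fold change was -0.12 (edgeR, adjusted p = 0.981). Near Sema3b, a semaphorin gene (Peak_21165), the values were 73.9, 77.1 and 77.0 against 75.6, 78.7 and 77.1 CPM, and the groups overlapped.

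Other motifs were searched by their letters on both strands, and N stands for any base. CAGCTG, the E-box form preferred by MyoD and myogenin, lay in 21.7% of members and 10.4% of flanking windows, 25.0% of intronic, 24.1% of remote and 12.0% of promoter intervals. Of 2 other E-box forms, CAGGTG lay in 14.1% of members and 15.5% of flanking windows, and CACGTG in 4.01% and 2.93%. The general form CANNTG, which includes all of these, was as frequent in flanking windows (66.5%) as in members (66.4%). TGANTCA, the AP-1 letters, lay in 10.2% of members, 5.29% of flanking windows and 15.3% of remote intervals. The promoter motifs GGGCGG (Sp1) and CCGGAA (ETS factors) lay in 17.1% and 6.50% of members, against 5.18% and 2.88% of flanking windows and 56.8% and 19.5% of promoter intervals. AGGTCA, to which nuclear receptors bind, lay in 15.8% and the MEF2 motif in 3.97% of members, against 13.3% and 3.22% of flanking windows. These shares describe letters and not bound sites.

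**Figure D2:**
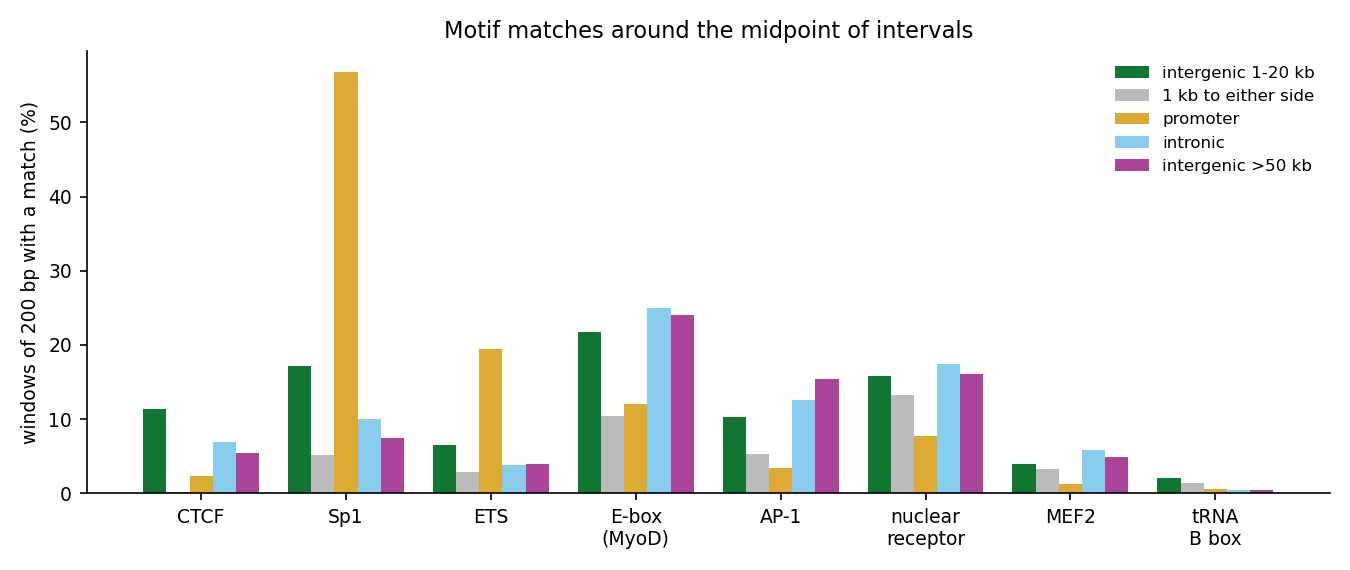
Percent of 200 bp windows that hold each motif, on either strand, with 1 bar per interval class and for the windows 1 kb to either side of the members. The CTCF motif is in 11.3% of members and 0.20% of flanking windows, and the E-box form CAGCTG is in 21.7% and 10.4%.

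A set of members carried the letters of tRNA genes. The B box GGTTCNANNCC lay in 98 members (2.10%), against 1.41% of flanking windows, 0.53% of promoter, 0.49% of intronic and 0.44% of remote intervals. It also occurs in SINE repeats, which derive from tRNAs. Of the 98 members, 81 (82.7%) had an observed to expected CG ratio of at least 0.6, against 865 of all members (18.6%). Their median RPKM was 156, 159 and 151 in CTL and 137, 169 and 168 in H2A.Z dKO, above the median of all members in every library, and H2A.Z dKO replicate 1 was the lowest. The member near U1 (Peak_6459, chr3:96304268-96304386) had 37.1, 43.0 and 33.0 CPM in CTL and 32.9, 40.7 and 39.8 in H2A.Z dKO, with overlapping groups. Members with a B box came together: 6 of the 8 members near 1700009P17Rik on chromosome 1 had one, as did 5 of the 11 near C230035I16Rik and 4 of the 11 near Trim27 on chromosome 13.

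The share of all counts that fell in members did not separate the groups. It was 7.16, 7.12 and 7.15% in CTL and 6.61, 7.36 and 7.37% in H2A.Z dKO, or 7.14 ± 0.0232 and 7.11 ± 0.44% (SD, n = 3 each). H2A.Z dKO replicate 1 was the lowest of the 6 and replicates 2 and 3 the highest, so the groups overlapped (difference -0.028 percentage points, exact permutation test, 2-sided, p = 1). The smallest p that 3 against 3 libraries allow is 0.1. Without H2A.Z dKO replicate 1 the difference turned to 0.226 percentage points.

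The spread of H2A.Z dKO replicate 1 was not even over the sequence classes. On the log2 scale of CPM, relative to the mean of the 6 libraries, the members averaged 0.0026, -0.015 and 0.0035 in CTL and -0.108, 0.066 and 0.051 in H2A.Z dKO. In H2A.Z dKO replicate 1 the 3939 members that were not CpG-rich stood at -0.124, those with a CTCF match at -0.191 and the 719 CpG-rich members at -0.0206, while promoter intervals stood at 0.0844 and CpG-rich promoter intervals at 0.108. Relative to promoter intervals, members differed between the groups by -0.0040 on the log2 scale (exact permutation test, 2-sided, p = 1) and by 0.091 without H2A.Z dKO replicate 1 (p = 0.1, exact, the smallest 3 against 2 libraries allow). Relative to remote intervals, the difference was -0.018 (p = 0.6, the same exact test) and -0.029 without that library (p = 0.4, exact). Relative to intronic intervals, it was -0.014 (p = 0.5, exact) and -0.034 without that library (p = 0.1, exact), opposite in sign to the value against promoters. Whether base composition had a part in these differences was not tested.

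**Figure D3:**
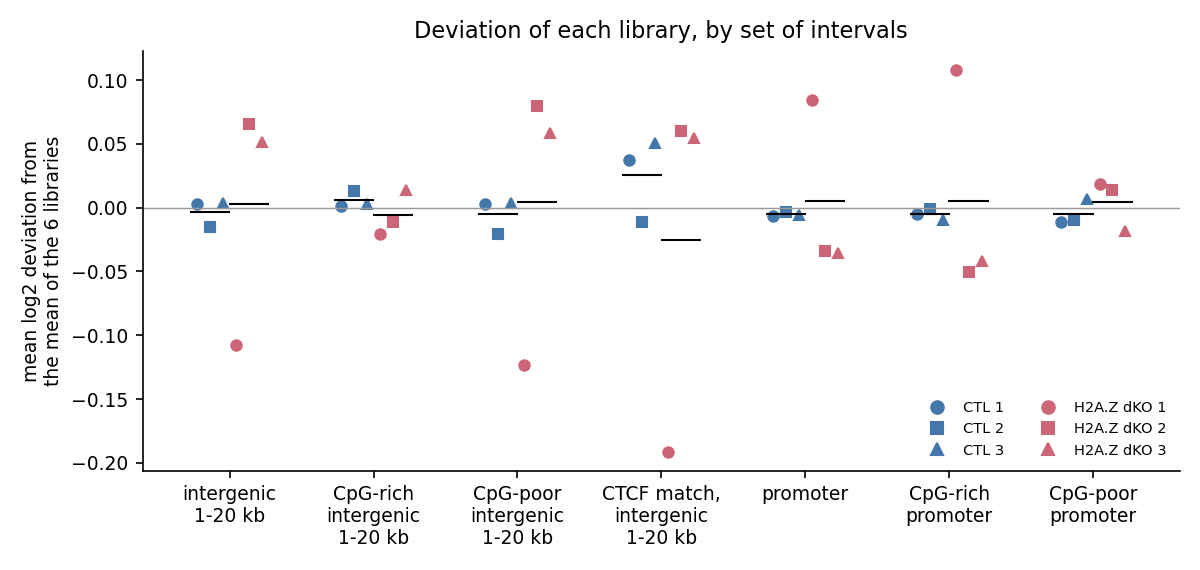
Mean deviation of log2 CPM from the mean of the 6 libraries, with 1 point per library and lines for the group means, for members and their sequence classes and for promoter intervals. H2A.Z dKO replicate 1 stands at -0.108 for all members and at 0.0844 for promoter intervals, on opposite sides of 0, and the other 5 libraries lie nearer to 0 for both.

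No single member passed the test between H2A.Z dKO and CTL. In the edgeR quasi-likelihood fit over all 39768 intervals, 0 of the 4658 members had an adjusted p under 0.05, as in the whole table, where 0% were called, and DESeq2 also called 0. Among members the lowest adjusted value was 0.855. Before adjustment, 269 members (5.78%) had a p under 0.05, against 4.95% of all intervals, with 147 higher and 122 lower in H2A.Z dKO. Those are 3.16% and 2.62% of members, where 2.64% and 2.31% of all intervals passed, and DESeq2 gave 95 members in place of 269. By class, 3.79% of promoter, 6.18% of intronic and 7.57% of remote intervals were under an unadjusted 0.05. These p-values set the difference between the groups against the spread of the libraries within each group, and the labels describe the mice no further. In bulk nuclei, fewer nuclei of a type and less open DNA per nucleus cannot be told apart.

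How large a difference the data could have hidden is given by the 95% confidence intervals of the log2 fold changes. For 4074 members (87.5%) the interval lay within a 2-fold change in either direction, and for 1647 (35.4%) within 1.5-fold, with a median half-width of 0.49. Of the 22 members with a fitted change of 2-fold or more, none had 20 counts in every library. As many members had a positive as a negative log2 fold change (2329 positive), and the median over all intervals was 0.012.

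**Figure D4:**
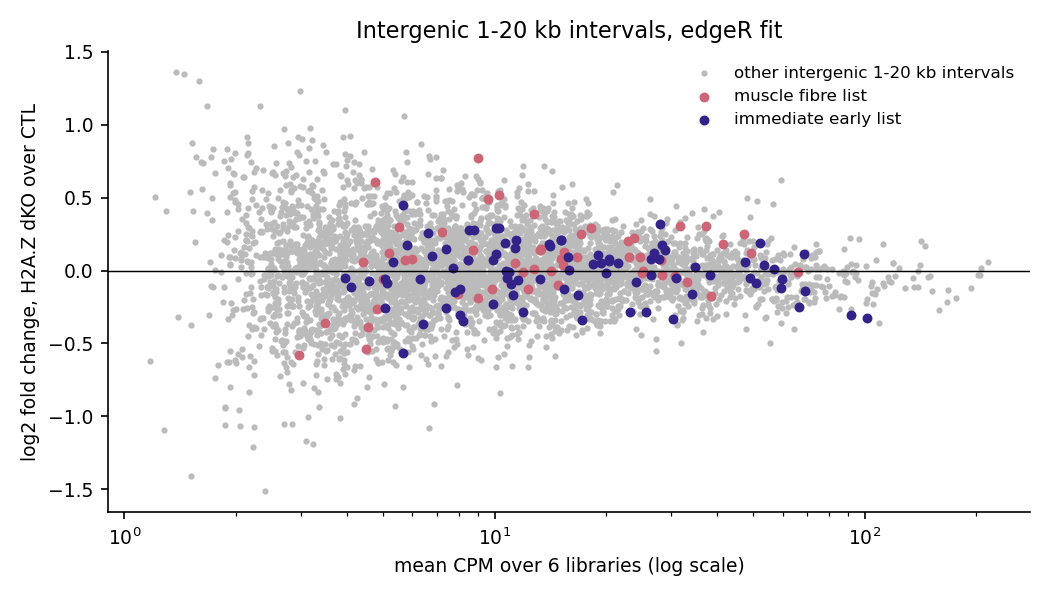
Log2 fold change (H2A.Z dKO against CTL, edgeR) of each member against its mean CPM on a log axis, with members of the muscle fibre and immediate early lists coloured. Changes of 2-fold or more are found in 22 members, none with 20 counts in every library, and no member passes an adjusted p of 0.05.

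The members with the smallest p in each direction had 10.3 CPM or less on average, against a median of 8.92 over all members. The interval 7.35 kb from Spty2d1, a histone chaperone gene (Peak_15400, 17 bp), had 3.76, 3.46 and 3.41 CPM in CTL and 0.851, 1.32 and 1.59 in H2A.Z dKO. The fitted log2 fold change came to -1.51 ± 0.33 (SE, edgeR adjusted p = 0.855). The member 6.82 kb from Tcf15, a basic helix-loop-helix factor of somites (Peak_4623, 149 bp), had 12.9, 13.2 and 13.6 against 6.13, 8.57 and 7.57 CPM, with a log2 fold change of -0.84 (edgeR, adjusted p = 0.972). In the other direction, the member 1.63 kb from a U6 gene (Peak_172) had 4.90, 2.38 and 3.41 CPM in CTL and 5.62, 8.79 and 8.96 in H2A.Z dKO. The fitted log2 fold change was 1.06 (edgeR, adjusted p = 0.972), and that of the member 13.3 kb from Mrpl45, a mitochondrial ribosomal protein gene (Peak_25838), was 1.23. The members near Spty2d1 and Tcf15 had been called as regions in CTL only, and those near U6 and Mrpl45 in H2A.Z dKO only. Each was thus in the data only through the group where it was higher, so its direction is no independent evidence.

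Near genes of muscle fibres, 53 members lay next to 23 of the 89 listed genes of contraction, calcium handling and energy supply. None had an adjusted p under 0.05. At an unadjusted 0.05, 5 were higher and 0 lower in H2A.Z dKO, where 2.64% and 2.31% of all intervals were, and the median log2 fold change was 0.075 against 0.012 over all intervals. The regions had been called per condition, and of all members called in H2A.Z dKO only, 134 were higher and 6 lower. Counts of a direction in a list are therefore no independent evidence of it. The member 17.6 kb from Myh2, the fast 2A myosin heavy chain (Peak_24757), had 7.03, 5.83 and 7.10 CPM in CTL and 10.4, 12.7 and 11.2 in H2A.Z dKO, without overlap (log2 fold change 0.77 ± 0.22 SE). Near Hspb7, one member (Peak_9410) had 32.9, 33.1 and 34.1 against 41.5, 40.4 and 41.4 CPM and another (Peak_9412), which holds the MEF2 match shown above, had 9.48, 6.70 and 7.67 against 12.8, 12.1 and 8.96. The groups overlapped for the latter only. The remaining 2 lay near Tpm1, a tropomyosin gene (Peak_20549, log2 fold change 0.52), and Scn4a, the sodium channel of muscle (Peak_26328, 0.61). All 5 had an adjusted p of 0.972.

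The member 1.02 kb from Ckm (Peak_14687), whose upstream enhancer is a textbook case of MyoD and MEF2 control, had 23.4, 17.5 and 26.1 CPM in CTL and 24.2, 23.5 and 23.5 in H2A.Z dKO, with overlapping groups and a log2 fold change of 0.09. The highest 2 of the list by counts lay near Myl3, the slow myosin light chain (Peak_21326, log2 fold change -0.01), and Myoz1, a Z-disc protein (Peak_30217, 0.12). Of the list's members, 31 (58.5%) held an E-box CANNTG and 8 (15.1%) a MEF2 match, where 66.4% and 3.97% of all members did. Promoter intervals of the 63 muscle fibre genes that had one summed to 1927 to 2184 CPM in CTL and 2011 to 2291 in H2A.Z dKO, so the library ranges overlapped there. Whether the makeup of nuclei had a part in the values of these members was not tested.

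Immediate early genes held the most members, 84 near 29 of 44 genes. At an unadjusted 0.05, 0 of the 84 were higher and 4 lower in H2A.Z dKO, where 2.64% and 2.31% of all intervals were, and the median log2 fold change was -0.0049. The member 10.9 kb from Fos (Peak_27946) had 99.9, 99.6 and 105 CPM in CTL and 87.5, 70.8 and 88.2 in H2A.Z dKO. The groups did not overlap, and the log2 fold change was -0.30 (edgeR, adjusted p = 0.972). The member 13.7 kb from Btg2 (Peak_1441) had 122, 114 and 101 CPM against 83.1, 81.8 and 106, where H2A.Z dKO replicate 3 lay above CTL replicate 3 (log2 fold change -0.32, edgeR adjusted p = 0.972). The member near Junb, another AP-1 subunit (Peak_18287), had 71.3, 74.3 and 70.5 against 55.5, 65.5 and 61.3 CPM, without overlap. A CArG box lay in 4 of the list's 84 members (4.76%), these 3 among them, and in 54 of all members (1.16%, flanking windows 0.67%). Whether the box goes with the fold changes was not tested. A further member of the list lay near Klf6, a zinc finger gene (Peak_28524, log2 fold change -0.57).

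The remaining lists held few members, and their counts at an unadjusted 0.05 are to be read against the same 2.64% higher and 2.31% lower of all intervals. Near 14 of 67 muscle regulators and denervation genes lay 28 members, with 1 higher and 0 lower at an unadjusted 0.05, and near 16 of 54 genes of the clock and fuel use lay 35, with 1 higher and 2 lower. The former was a member near Mef2d, which encodes a MEF2 factor (log2 fold change 0.39). Of the latter, Prkag3, the muscle subunit of AMP-activated kinase, had 0.60, Arntl, the BMAL1 gene of the clock, had -0.75 and Lpl, lipoprotein lipase, had -0.61. All adjusted p-values of these lists were 0.97 or more in the edgeR fit.

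Among markers of other cells of muscle, 28 members near 9 of 26 satellite cell genes gave 2 higher and 0 lower at an unadjusted 0.05 (2.64% and 2.31% of all intervals), near Itga7 (log2 fold change 0.46), an integrin that muscle fibres also make, and Notch3 (0.54), which vessel walls also make. Fibroblast genes had 24 members near 12 of 39 genes with 1 higher, near the collagen gene Col1a1 (0.82). Endothelial genes had 11 members near 7 of 36 with none at that p. Macrophage and blood genes had 4 members near 2 of 29 genes, with 1 higher, near the mannose receptor gene Mrc1 (0.55). For smooth muscle and pericytes there were 4 members near 3 of 18 genes with 1 higher, the same member near Notch3. The members near Notch3 and Mrc1 had been called as regions in H2A.Z dKO only, the group where they were higher, so their direction is no independent evidence. A macrophage or blood marker promoter was open in the table for 1 of 29 genes, with 4.10 to 5.97 CPM in CTL and 1.70 to 4.38 in H2A.Z dKO. Endothelial promoter intervals, of 14 of 36 genes, summed to 313 to 320 CPM in CTL and 282 to 304 in H2A.Z dKO without overlap. The other lists overlapped. Fibroblast promoters summed to 541 to 621 CPM in CTL and 596 to 670 in H2A.Z dKO, and satellite cell promoters to 441 to 478 and 472 to 493. The sums were 214 to 228 and 195 to 230 for smooth muscle and pericytes, and 162 to 175 and 160 to 167 for Schwann cells. The part of these cells in the values of the members was not tested.

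**Figure D5:**
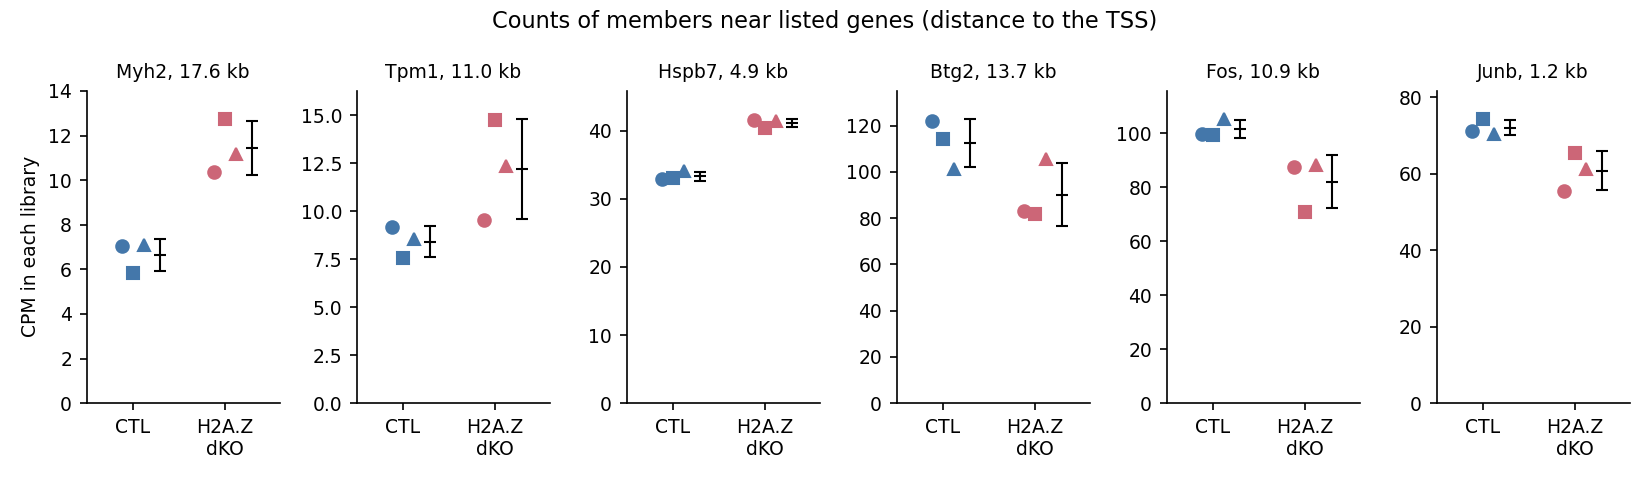
CPM in each of the 6 libraries for listed members near genes of muscle fibres and immediate early genes, with 1 point per library, shapes for the replicate number and bars for the mean ± SD of each group. For Myh2 and Fos the groups do not overlap, at 5.83 to 7.10 against 10.4 to 12.7 CPM and at 99.6 to 105 against 70.8 to 88.2, and for Btg2 they do.

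Members were spread over many genes. They had 2553 nearest genes, of which 1550 had a single group of overlapping members, 1003 had 2 or more and 69 had 5 or more. The most lay around Malat1, an abundant nuclear noncoding RNA, with 16 members in 12 groups over 35.9 kb of chromosome 19. They summed to 346, 304 and 377 CPM in CTL and 275, 359 and 359 in H2A.Z dKO, where H2A.Z dKO replicate 1 was lowest and the groups overlapped. The 11 members near C230035I16Rik, in a region of tRNA-like letters on chromosome 13, summed to 180, 171 and 198 against 154, 213 and 218 CPM, again with H2A.Z dKO replicate 1 lowest. Near Fgfr4, a growth factor receptor gene of muscle progenitors, 9 members summed to 104, 101 and 105 against 90.7, 120 and 123 CPM, and none was under an unadjusted 0.05.

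The regions had been called per condition before they were merged, and 2441 members (52.4%) came from H2A.Z dKO only, 944 (20.3%) from CTL only and 1273 (27.3%) from both, against 43.4%, 17.9% and 38.7% of all intervals. At an unadjusted 0.05, 134 of the 2441 were higher and 6 lower in H2A.Z dKO, 4 of the 944 were higher and 77 lower, and 9 of the 1273 were higher and 39 lower, where 2.64% and 2.31% of all intervals were. Both the origin and the counts come from the same libraries, so these counts are no independent evidence of a direction. The same holds for the counts in the gene lists, whose members were called in the same way.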

How the data were processed

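ATAC-seq was made from 50000 muscle nuclei per mouse, 3 CTL and 3 H2A.Z dKO. According to the methods, the authors trimmed reads with Trimmomatic, aligned them to mm9 with Bowtie, removed duplicates with Picard, shifted fragment ends to the Tn5 centre and called regions with MACS2. Regions shared by the replicates of a condition were merged over both conditions. The deposited counts are whole, unnormalized fragment ends per interval in each library. The methods state that ends were extended before counting, so ends beside an interval can count in it. The deposited columns of the authors' own DESeq2 comparison (log2 fold change and error, p-value and adjusted p-value, and the score columns of mean level, Wald statistic and weight) were not used.

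Of intervals whose starts were read as 0-based and written 1-based, members were taken by position alone. CPM and RPKM were computed on library totals of 3520008 to 6117245 counts, with 31 (CTL replicate 3) to 55 (CTL replicate 1) counts in the median member. Intervals were tested together with edgeR 4.0.16 (R 4.3.3, TMM, robust quasi-likelihood) and Benjamini-Hochberg adjustment over all 39768. A script, tested on simulated data, ran exact permutations over libraries for single values, all 2-sided. Deviations used log2(TMM-scaled CPM + 0.5). Sequence came from the mm9 genome and start sites from a RefSeq table of GRCm38.p6. Alternatives were DESeq2 1.42.0, other scalings, count and width filters, other member rules, a replicate block and leaving out each library. Named members were the 10 highest by mean CPM, the 2 of smallest p in each direction, the 2 highest of each gene list and those next to the distance limits, and others are examples of a sequence class or list. The members and lists were chosen with earlier results of these data known. Some items are not reported here.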

Additional observations from a re-analysis of the deposited data

How the results depend on the processing

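The count of members at an unadjusted p under 0.05 was 269 with edgeR and 95 with DESeq2, and 183 to 398 when 1 library was left out. No member had an adjusted p under 0.05 with DESeq2, the other scalings, filterByExpr, the other member rules or without any 1 library, while the count and width filters were not run for this count. Members numbered 3873 with distances to protein-coding TSSs only, 4709 with distances from the midpoint and 4169 with 1 interval per overlapping group. The mean log2 level of members, H2A.Z dKO minus CTL, was 0.00626, and turned to -0.00568 where every library had at least 20 counts. Leaving out 1 library gave -0.0250 (without H2A.Z dKO replicate 2) to 0.0617 (without H2A.Z dKO replicate 1) for this level and -0.0179 without H2A.Z dKO replicate 3. The difference in share ran from -0.157 to 0.226, relative to promoters from -0.0547 to 0.0910, and relative to remote intervals from -0.0355 to 0.000475, positive only without CTL replicate 1. The log2 difference in median RPKM ran from -0.351 to -0.284 against promoters, from 0.101 to 0.118 against intronic and from 0.235 to 0.252 against remote intervals, from 0.344 to 0.359 between the distance classes and from 0.00730 to 0.0139 between the sides of the TSS. With 5 libraries the exact test cannot go below p = 0.0625. Members on the 5′ side were higher than those on the 3′ side in 6 of 6 libraries with at least 20 counts (0.0271), at least 73 bp (0.0282), distance from the midpoint (0.0167) or 1 interval per group (0.0175), but not with distances to protein-coding TSSs (0.00198, exact p = 0.8125). The excess in median RPKM of members with a CTCF match was 0.0825, in fewer than 6 libraries, at 73 bp or more. The cause of these changes was not tested.

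Same-numbered libraries did not deviate together (correlations of -0.099, -0.054 and -0.033 over intervals), and those with different numbers had -0.053 to 0.091. Such values cannot show whether the mice were paired, and the labels name no pairing. With the replicate block 0 members were called and 239 had an unadjusted p under 0.05. The share, the mean level and the differences relative to promoter and remote intervals kept their values with it. The block was not run for the comparisons of median RPKM. Narrow members hold few counts, and their fold changes have wide errors. Counts of overlapping intervals are not independent. CTCF, tRNA and RefSeq comparisons and those of CpG classes were added after the data were seen.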
